A study of Mus musculus with 28 samples.

Results

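Reads on transfer RNAs for glycine and glutamate (tRNA-Gly and tRNA-Glu) were followed in 28 small RNA libraries from mouse sperm. The annotation of the deposited count tables gives each tRNA a name that ends in the codon it reads, with Y for C or T, and numbers the genomic copies of a name. Every structural RNA entry whose name begins with tRNA-Gly- or tRNA-Glu- was taken, and its copies were summed. This gave 6 names of 59 tRNA names: tRNA-Gly-GGY, tRNA-Gly-GGA, tRNA-Gly-GGG, tRNA-Glu-GAG_, tRNA-Glu-GAA and tRNA-Glu-GAG. Of the tRNA copies listed, they cover 108 of 1219 for wild type libraries, 103 of 899 for Nrf2-/- libraries and 88 of 821 for flox and liver knockout libraries. The members were picked out by name, but this group of names was chosen with earlier results of these data known.

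A tRNA carries its amino acid to the ribosome, and pairs with the codon through its anticodon. Cut tRNAs give tRNA-derived fragments, and 5′ fragments of tRNA-Gly-GCC and tRNA-Glu-CTC, which read the codons of tRNA-Gly-GGY and tRNA-Glu-GAG_, are known as abundant small RNAs of mature mouse sperm. Sperm are known to take up such fragments in the epididymis, in vesicles shed by its epithelium, and their levels are known from other work to shift with the diet of the father. The tables count reads per tRNA and give no read ends, so fragments and whole tRNAs cannot be told apart here.

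Total RNA was extracted from sperm with Trizol and made into libraries with a Qiaseq small RNA kit. Wild type (WT) mice gave 4 control libraries with no alcohol, 4 at a low, 2 at a medium and 2 at a high dose of alcohol. Nrf2-/- mice gave 4 libraries with ethanol and 4 control libraries, so both of these groups lack Nrf2, the transcription factor encoded by Nfe2l2 that switches on antioxidant genes. Mice with floxed Nrf2 and Albumin-Cre, which is active in liver cells, gave 4 liver knockout (liver KO) libraries, and mice with floxed Nrf2 gave 4 flox libraries, with no alcohol named for either. The sources used here do not state ages, alcohol amounts or how many animals stand behind a library. The p-values therefore measure the spread between these libraries, which may be technical.

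Total counts ran from 1993933 to 11119711 for WT libraries, 3922109 to 6448390 for Nrf2-/- libraries, and 2567463 to 4394714 for flox and liver KO libraries. All 10 sperm and spermatid marker transcripts were listed above 0 in every library. WT control 1 stood apart: tRNAs took 75.2% of its counts, against 21.5% to 27.4% in the other 3 WT controls. Its summed sperm markers were 245 CPM (counts scaled to a common library total) against 469 to 528 CPM. The CPM of other features falls where tRNAs take more of the counts, so this lower sum does not show fewer sperm transcripts. Because of its tRNA content, results of the WT comparisons are given with and without WT control 1. Nrf2-/- controls 1 and 2 also stood apart, with summed epididymis markers at 1377 and 1347 CPM, against 42.8 and 26.1 CPM in controls 3 and 4. Exon counts of Nfe2l2 itself were too few to check the knockouts, at 0 to 4.15 CPM in Nrf2-/- libraries and 0.615 to 7.52 CPM in WT libraries.

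The major glycine name, tRNA-Gly-GGY, supplies glycine for the GGC and GGT codons. Its share of all counts was 27.3%, 4.32%, 6.54% and 5.57% in WT controls 1 to 4, 7.89%, 8.09%, 8.24% and 7.40% in the low-dose libraries, 8.31% and 9.64% at the medium dose, and 6.06% and 8.05% at the high dose. WT control 1 was the highest of these 12 libraries and the other 3 controls were among the 4 lowest. The Nrf2-/- ethanol libraries had 2.16%, 2.58%, 2.86% and 2.01% of all counts on this name, against 3.03%, 2.41%, 2.63% and 2.28% in Nrf2-/- controls. The liver KO libraries had 17.9%, 15.7%, 14.2% and 12.0%, against 14.2%, 8.72%, 17.0% and 10.5% in flox libraries. No Nrf2-/- library reached the lowest WT library, and no flox or liver KO library fell below 8.72%, a level that WT control 1 and 1 medium-dose library alone exceeded among WT libraries. The 3 tables hold different genotypes and library sets, so these levels are set side by side without a test.

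The major glutamate name, tRNA-Glu-GAG_, brings glutamate to the GAG codon. It took 20.3%, 4.43%, 6.10% and 3.82% of all counts in WT controls 1 to 4, 4.76%, 5.33%, 4.83% and 4.86% at the low dose, 4.60% and 5.96% at the medium dose, and 7.08% and 4.74% at the high dose. Apart from WT control 1, the WT libraries lay between 3.82% and 7.08%. Values were 2.92%, 4.70%, 4.00% and 12.95% in Nrf2-/- ethanol libraries, against 4.31%, 4.07%, 5.79% and 6.97% in Nrf2-/- controls, so that ethanol library 4 held the highest share of its table. The liver KO libraries had 9.30%, 12.2%, 9.17% and 8.13% on this name, against 5.24%, 5.96%, 8.91% and 5.79% in flox libraries. All liver KO values but the last exceeded every flox value.

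**Figure D1:**
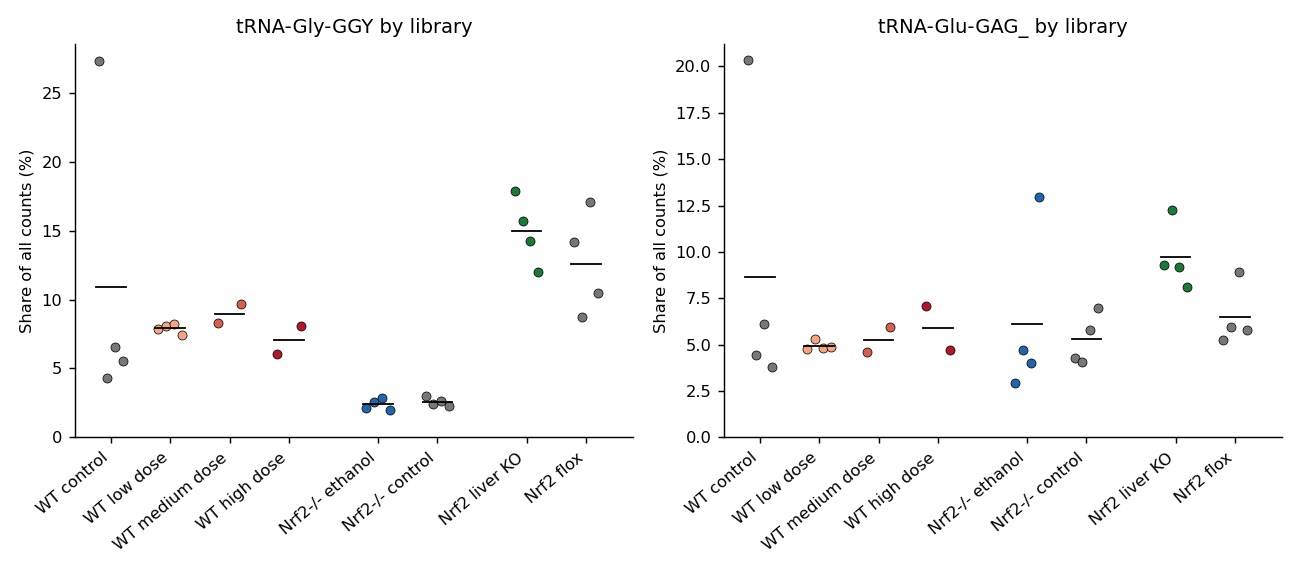
Share of all counts (%, y axis) taken by tRNA-Gly-GGY (left panel) and tRNA-Glu-GAG_ (right panel) in each of the 28 libraries, by group. Points are libraries and bars are group means. WT control 1 lies far above the other WT libraries in both panels, at 27.3% and 20.3%, and Nrf2-/- ethanol 4 lies above its group for tRNA-Glu-GAG_ only, at 12.95%.

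Shares of all counts sum over the copies of a name, and many copies held almost the same counts. For tRNA-Gly-GGY, 13 of the 20 copies with at least 500 counts fell into 2 sets whose copies matched within 3% or 5 counts in all 28 libraries, and these sets held 99.3% of the name's counts. The sources used here do not say how reads with more than 1 genomic position were counted. If 1 read was counted at each of its positions, the sums hold it many times. With each tRNA name taken at its largest copy only, the 6 names together made up 1.41% to 1.54% of all counts in low-dose libraries and 0.998% to 1.59% in WT controls 2 to 4, instead of 12.6% to 13.7% and 9.01% to 12.9%. The shares of all counts are thus relative levels within this counting scheme. With each count taken as a separate read, the widest 95% Wilson interval extended 0.0489 percentage points to either side. If reads were counted at several copies, the counting error is larger than that. Wilson intervals cover counting error only, and the labels name no molecular identifiers.

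Shares within the tRNA counts remove the effect of a library's total tRNA content. By counts, tRNA-Gly-GGY led the 59 tRNA names in WT libraries, with a mean of 27.3% of tRNA counts, and in flox and liver KO libraries, with 39.4%. In Nrf2-/- libraries it came behind 2 other names, with 9.66%. tRNA-Glu-GAG_, with 19.5%, was the second of the WT names, and also the second for liver KO and flox libraries, with 22.99%. With 20.2% it led the Nrf2-/- libraries. In sums over copies, the order of the pair was thus reversed in the Nrf2-/- table. The ratio of tRNA-Gly-GGY to tRNA-Glu-GAG_ counts was 0.155 to 0.740 there, 0.857 to 1.80 in WT libraries and 1.28 to 2.70 in flox and liver KO libraries. These sums may hold a read several times, so the order may depend on how copies were counted, and the order per copy is not given here. Among the other names, tRNA-Val-GTG (9.41%), tRNA-Asp-GAY (5.87%) and tRNA-Val-GTY (3.72%) came next among WT libraries. For Nrf2-/- libraries they were tRNA-Val-GTG (16.2%), tRNA-Cys-TGY (8.73%) and tRNA-Lys-AAA (8.14%), and for flox and liver KO libraries tRNA-Asp-GAY (6.75%), tRNA-Val-GTG (3.88%) and tRNA-Cys-TGY (3.81%).

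Within groups, tRNA-Gly-GGY took 36.3%, 18.9%, 23.9% and 25.9% of tRNA counts in WT controls 1 to 4, 24.7% to 30.8% at the low dose, 28.04% and 31.1% at the medium dose and 20.7% and 29.5% at the high dose. WT control 1 remained the highest WT library on this scale, but by much less than on the share of all counts. The liver KO libraries lay at 41.3%, 37.2%, 39.3% and 38.4%, inside the flox range of 31.05% to 47.5%. For tRNA-Glu-GAG_ they lay at 21.5%, 29.1%, 25.4% and 25.9%, against 17.6%, 21.3%, 23.6% and 19.7% in flox libraries.

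**Figure D2:**
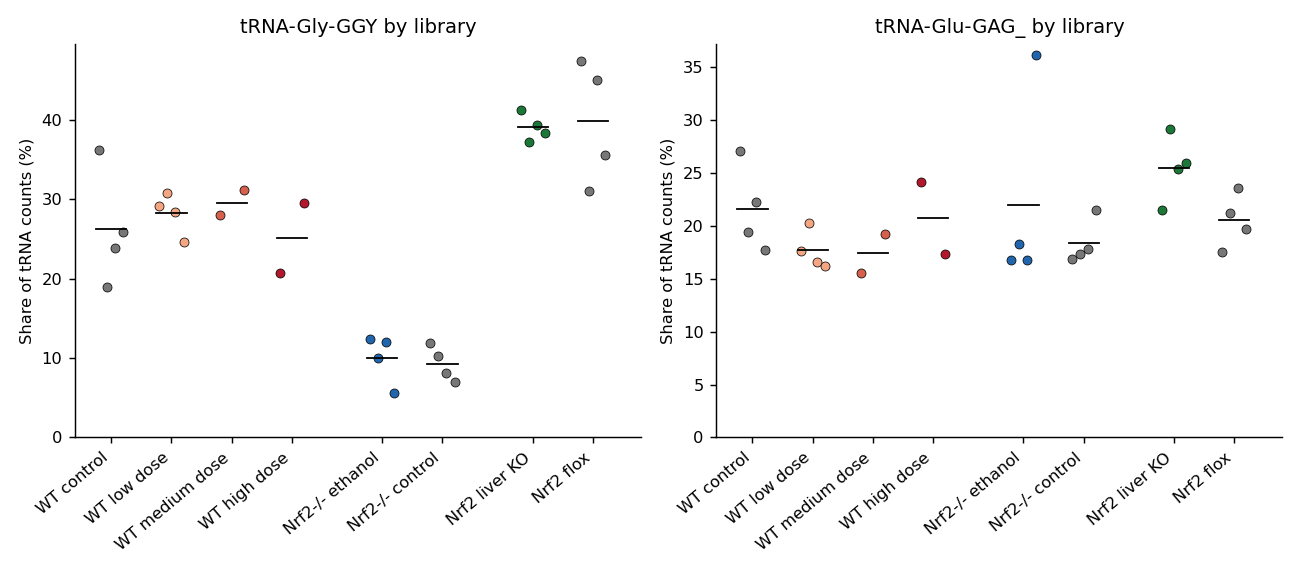
Share of tRNA counts (%, y axis) taken by tRNA-Gly-GGY (left panel) and tRNA-Glu-GAG_ (right panel) in each library, by group, with bars at the group means. The Nrf2-/- libraries hold 5.62% to 12.4% of tRNA counts on tRNA-Gly-GGY, below every other library, while tRNA-Glu-GAG_ lies between 15.5% and 29.1% in all libraries apart from Nrf2-/- ethanol 4 at 36.2%.

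The remaining 4 names were minor. tRNA-Gly-GGA, which supplies glycine for the GGA codon, averaged 0.889% of tRNA counts over WT libraries, 1.29% over Nrf2-/- libraries and 0.925% over flox and liver KO libraries. Its level ranged from 2112 to 4907 CPM over all 28 libraries. tRNA-Gly-GGG, for the GGG codon, ran from 201 to 806 CPM in WT libraries, from 42.9 to 73.5 CPM in Nrf2-/- libraries and from 316 to 785 CPM in flox and liver KO libraries, so that, as for tRNA-Gly-GGY, every Nrf2-/- library lay below every other library. tRNA-Glu-GAA, for the GAA codon, ran from 73.2 to 249 CPM, from 36.0 to 133 CPM and from 102 to 188 CPM in the same order of tables. The last name, tRNA-Glu-GAG without the trailing mark, held at most 5 counts in a library and 26 counts in all, and did not pass the filter on low counts in any comparison. The other 5 names passed it in all 5 comparisons.

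**Figure D3:**
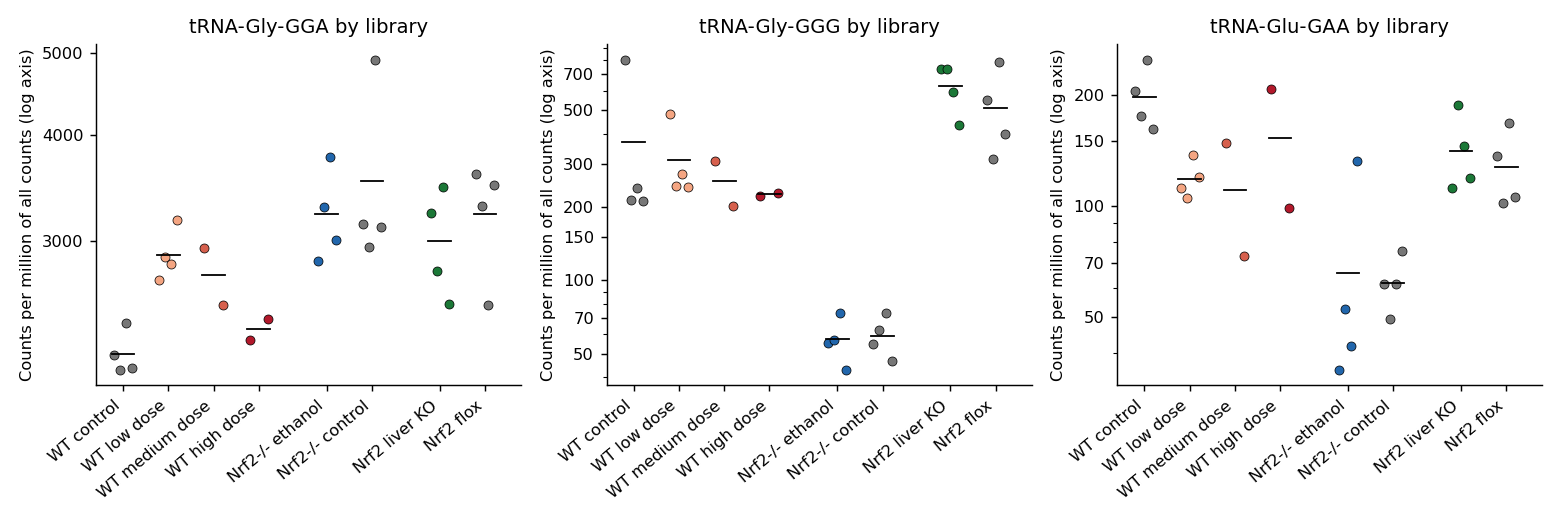
Level in CPM of all counts (log axis) for the minor names tRNA-Gly-GGA, tRNA-Gly-GGG and tRNA-Glu-GAA in each library, by group, with bars at the group means. Low-dose libraries lie above all WT controls for tRNA-Gly-GGA and below all of them for tRNA-Glu-GAA, and tRNA-Gly-GGG is lowest in the Nrf2-/- table.

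RefSeq (GRCm38.p6) lists 14 mouse genes for tRNA-Gly with the GCC anticodon and 1 with ACC, which together read GGY, 7 with TCC for GGA, 6 with CCC for GGG, 12 tRNA-Glu genes with CTC for GAG and 8 with TTC for GAA. All are 71 to 74 bases long, so the names differ little in gene length. Their counts still depend on how many copies were summed and on how shared reads were counted. Of the 14 tRNA-Gly-GCC genes, 10 stand next to another tRNA gene, and genes for Glu, Gly-TCC, Asp, Leu and Gly-GCC follow one another in that order 3 times. No position is assigned to a copy, because the sources used here state no build for the count tables.

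The 2 sets of tRNA-Gly-GGY copies, of 10 and 3 copies, behaved differently between tables. These sets were found by comparing counts, so what follows is a description without tests. Per copy, the 3-copy set held 0.167 to 0.300 times the counts of the 10-copy set in the 12 WT libraries, but 1.55 to 4.47 times in the 8 Nrf2-/- libraries. Thus the low tRNA-Gly-GGY share of the Nrf2-/- table lay in the 10-copy set: at 906 to 1906 CPM per copy there, against 3950 to 25081 CPM per copy in WT libraries. The 3-copy set was at 2385 to 4453 CPM per copy in Nrf2-/- libraries, against 1130 to 6910 CPM per copy in WT libraries. Between liver KO and flox libraries the ratio also separated, at 0.631, 0.777, 0.516 and 0.436 in liver KO libraries, against 0.383, 0.376, 0.401 and 0.381 in flox libraries. Every liver KO library lay above every flox library, whereas the total tRNA-Gly-GGY share overlapped. The 3-copy set made up 11.5% to 18.8% of tRNA-Gly-GGY counts in liver KO libraries, against 10.1% to 10.7% in flox libraries.

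Copies of tRNA-Glu-GAG_ formed sets of 9, 4 and 2 copies with 95.8% of its counts. Per copy, the 9-copy set held 1.27, 1.25, 1.51 and 1.21 times the counts of the 4-copy set in low-dose libraries, against 1.38, 0.728, 0.931 and 0.729 times in WT controls 1 to 4, so the groups overlapped through WT control 1. The ratio was 0.799 and 0.552 at the medium dose and 0.899 and 0.517 at the high dose. Nrf2-/- ethanol 4 had a ratio of 5.11, the highest of all libraries, against 1.63 to 1.88 in the other ethanol libraries and 1.47 to 2.77 in Nrf2-/- controls. Its high tRNA-Glu-GAG_ share lay mainly in the 9-copy set, which took 10.6% of its counts, against 1.90% to 3.22% in the other ethanol libraries.

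**Figure D4:**
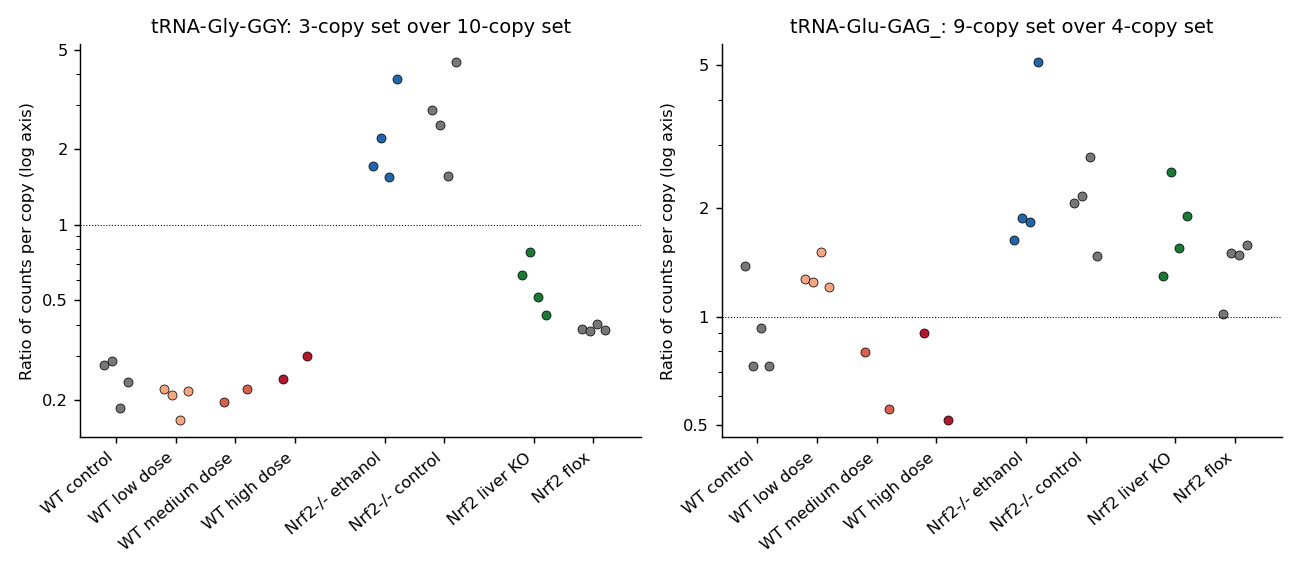
Ratio of counts per copy (log axis) between sets of near-identical copies in each library, by group: the 3-copy over the 10-copy set of tRNA-Gly-GGY (left panel) and the 9-copy over the 4-copy set of tRNA-Glu-GAG_ (right panel). The dotted line marks equal counts per copy. The left ratio is below 1 in every WT, flox and liver KO library and above 1 in every Nrf2-/- library.

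The low-dose comparison asks whether exposure of the father to alcohol goes with a shift of these tRNA reads in WT sperm. With all controls included, tRNA-Glu-GAA was lower at the low dose, at 105 to 138 CPM in low-dose libraries and 161 to 249 CPM in controls, without overlap. In shares of tRNA counts it overlapped, at 0.0399% to 0.0474% in low-dose libraries and 0.0272% to 0.0911% in controls, and none of the 57 tRNA names tested by edgeR (0%) was free of overlap there. tRNA-Gly-GGA was higher, at 0.270%, 0.287%, 0.282% and 0.317% of all counts in low-dose libraries, against 0.220%, 0.211%, 0.240% and 0.212% in controls, also without overlap. These were the only 2 of the 57 tRNA names (3.51%) whose shares of all counts did not overlap. In shares of all counts, tRNA-Gly-GGY overlapped with the controls through WT control 1 only, while tRNA-Glu-GAG_ overlapped with or without that library. None of the 5 tested names passed the test across all features: edgeR's quasi-likelihood test called 11 of 17937 features (0.0613%), and 2 of the 5 names had an unadjusted p under 0.05, against 7.46% of all features. DESeq2 called 0 of the names and 21 features, but gave no p for tRNA-Gly-GGY, tRNA-Gly-GGG and tRNA-Glu-GAG_. The log2 changes in edgeR were -1.04 (SE 0.30, adjusted p = 0.253) for tRNA-Glu-GAA, -1.52 (SE 0.56, adjusted p = 0.451) for tRNA-Glu-GAG_ and -1.21 (SE 0.59, adjusted p = 0.685) for tRNA-Gly-GGY. These estimates rest largely on WT control 1, whose composition scaling factor was 0.431.

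Without WT control 1, 3 names changed sign. In edgeR, tRNA-Gly-GGY was then at a log2 difference of 0.66 (SE 0.19, adjusted p = 0.421) between low-dose libraries and controls, and tRNA-Gly-GGG at 0.61 and tRNA-Glu-GAG_ at 0.19. The other 2 names kept theirs, tRNA-Gly-GGA at 0.50 and tRNA-Glu-GAA at -0.59. No feature passed the adjusted threshold, and 4 of the 5 names had an unadjusted p under 0.05 in edgeR, against 6.73% of 17793 features. In shares of all counts, tRNA-Gly-GGY averaged 7.91% ± 0.365 in low-dose libraries (SD, n = 4) and 5.48% ± 1.11 in controls 2 to 4 (SD, n = 3), without overlap. Among the 38 tRNA names abundant enough to test, 7 did not overlap (18.4%), and tRNA-Gly-GGA was the other member among them. In shares of tRNA counts 28.9% of the 38 names did not overlap, and 0 of the 3 members among them (tRNA-Gly-GGY, tRNA-Gly-GGA and tRNA-Glu-GAG_). tRNA-Glu-GAA, too rare to be among the 38, was free of overlap on that scale, at 0.0399% to 0.0474% of tRNA counts in low-dose libraries and 0.0751% to 0.0911% in controls 2 to 4. Over all 57 names tested by edgeR, 40.4% did not overlap in shares of tRNA counts, with 1 of the 5 members. In shares of all counts it was 22.8%, with 4 of the 5 members, all except tRNA-Glu-GAG_. The exact two-sided permutation test gave p = 0.0571 for tRNA-Gly-GGY, which is as small as 4 and 3 libraries permit, with an adjusted p of 0.290.

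With all 4 controls, tRNA-Gly-GGA was the only one of the 38 tRNA names (2.63%) whose share of all counts did not overlap, at 0.289% ± 0.0202 at the low dose and 0.221% ± 0.0134 in controls (SD, n = 4 each). Its exact p was 0.0286, as small as groups of 4 permit, and its adjusted p over the 38 names was 0.310. As a share of tRNA counts it overlapped, at 0.970% to 1.09% in low-dose libraries and 0.292% to 0.986% in controls. Red blood cell markers moved with this comparison, at a summed 34.7 to 63.8 CPM in low-dose libraries and 1.89 to 13.5 CPM in controls. Of the 6 red blood cell genes, 0 to 1 were at 0 in a low-dose library and 0 to 3 in a control, and their part in the tRNA values was not tested. In these bulk libraries, fewer cells of a type and less RNA per cell cannot be told apart.

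At the medium dose, with 2 libraries, tRNA-Gly-GGY and tRNA-Gly-GGA lay on the same side of controls 2 to 4 as at the low dose. tRNA-Gly-GGY took 8.31% and 9.64% of all counts, above controls 2 to 4 at 4.32% to 6.54% and below control 1. tRNA-Gly-GGA took 0.294% and 0.252%, above all 4 controls, and tRNA-Glu-GAA 0.00732% and 0.0148%, below all 4 controls at 0.0161% to 0.0249%. These 2 of the 5 members did not overlap, where 24.6% of the 57 tRNA names did not, and 31.6% of the 38 more abundant names. Without WT control 1, tRNA-Gly-GGY joined them, against 38.6% of the 57 names and 47.4% of the 38. In shares of tRNA counts no member was free of overlap with all 4 controls (5.26% of the 57 names). Without WT control 1, tRNA-Gly-GGY and tRNA-Glu-GAA were, the second at 0.0236% and 0.0499%, against 0.0751% to 0.0911% in controls 2 to 4, as were 38.6% of the 57 names. DESeq2 called 0 features, in the same fit that gave no p for tRNA-Gly-GGY, tRNA-Gly-GGG and tRNA-Glu-GAG_ at the low dose. edgeR called 0 of 17937 features (0%), and 1 of the 5 names had an unadjusted p under 0.05 in edgeR, against 4.74% of features. The edgeR log2 differences were -0.92 (SE 0.75, adjusted p = 0.948) for tRNA-Gly-GGY with all controls and 0.96 (SE 0.22, adjusted p = 0.787) without WT control 1. In that fit 3 of the 5 names had an unadjusted p under 0.05, against 5.91% of features. tRNA-Glu-GAG_ stood at -1.31 with all controls and 0.40 without WT control 1, tRNA-Gly-GGG at -1.10 and 0.42, tRNA-Gly-GGA at 0.11 and 0.53, and tRNA-Glu-GAA at -1.05 and -0.59. The low-dose, medium-dose and high-dose comparisons share their controls. The smallest exact p of 2 against 4 libraries is 0.133, so no share could pass the threshold here.

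The 2 high-dose libraries differed from each other in both glutamate names. tRNA-Gly-GGY took 6.06% and 8.05% of all counts in high-dose libraries, against 4.32% to 6.54% in controls 2 to 4, and tRNA-Glu-GAG_ took 7.08% and 4.74%, against 3.82% to 6.10%. tRNA-Glu-GAA was at 207 and 98.9 CPM, against 161 to 249 CPM in all controls. No member was free of overlap in shares of all counts, with all 4 controls (5.26% of the 57 names) or without WT control 1 (15.8%). In shares of tRNA counts, tRNA-Gly-GGG was the only 1 of the 57 names (1.75%) that did not overlap, at 0.0757% to 0.0841% in high-dose libraries and 0.0876% to 0.107% in all controls. Without WT control 1, tRNA-Glu-GAA also did not, at 0.0362% to 0.0706% and 0.0751% to 0.0911%, where 29.8% of the 57 names did not overlap. DESeq2 called 0 features, again in the fit that gave no p for tRNA-Gly-GGY, tRNA-Gly-GGG and tRNA-Glu-GAG_ at the low dose. edgeR called 0 of 17937 features (0%), and 2 of the 5 names had an unadjusted p under 0.05 in edgeR, against 2.91% of features. Log2 differences ran from -1.51 for tRNA-Gly-GGG to -0.33 for tRNA-Gly-GGA with all controls, each with an edgeR adjusted p of 0.999. Without WT control 1 they ran from -0.40 for tRNA-Glu-GAA to 0.42 for tRNA-Gly-GGY, with 0 names under an unadjusted p of 0.05, against 3.27% of features. Epididymis markers also differed between the 2 high-dose libraries, at 1450 and 268 CPM, against 171 to 519 CPM in controls. In each high-dose library 4 of the 10 genes were at 0 or not listed. The part of these markers was not tested.

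The 6 names summed came to 13.2% ± 0.489 of all counts at the low dose (SD, n = 4), 14.6% ± 1.86 at the medium dose (SD, n = 2) and 13.2% ± 0.244 at the high dose (SD, n = 2), against 10.5% ± 2.11 in controls 2 to 4 (SD, n = 3) and 47.9% in control 1. As a share of tRNA counts the sums were 47.1% ± 4.27, 48.0% ± 4.62 and 46.8% ± 1.57, against 43.8% ± 4.00 in controls 2 to 4 and 63.7% in control 1. The sums are given as values without a test. All 3 dose groups thus lay between the mean of controls 2 to 4 and control 1 on both scales.

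In Nrf2-/- sperm, ethanol and control libraries overlapped for all 5 tested names on both scales. Of the 34 more abundant tRNA names, 8.82% did not overlap in shares of all counts and 0% in shares of tRNA counts. Those 34 names include only 3 of the 5 members. Ethanol library 4 stood apart in its group in the glutamate names. tRNA-Glu-GAG_ took 36.2% of its tRNA counts, against 16.8% to 18.2% in the other ethanol libraries and 16.8% to 21.5% in controls. tRNA-Glu-GAA was likewise at 133 CPM in ethanol 4, against 36.0 to 52.8 CPM in the other ethanol libraries and 49.4 to 75.4 CPM in controls. tRNA-Gly-GGY was at 5.62% of tRNA counts in the same library, the lowest of the 8, against 10.0% to 12.4% in the other ethanol libraries. Log2 differences in edgeR lay between 0.14 and 0.29, with SEs of 0.46 to 0.55 and adjusted p from 0.822 to 0.902, where the median of all features was -0.27. edgeR called 0 of 9658 features (0%), 0 of the names had an unadjusted p under 0.05, against 4.83% of features, and DESeq2 called 3 features and no name. On simulated counts of this comparison edgeR recovered 0% of 4-fold changes, so its 0 calls cannot show a lack of response. Without ethanol 4, tRNA-Glu-GAG_ stood at -0.09 and tRNA-Glu-GAA at -0.12. With Nrf2-/- controls 1 and 2 left out together, edgeR called 2413 of 10770 features but still 0 of the 5 names, whose log2 differences lay between -0.19 and 0.08. Summed epididymis markers were 156 to 412 CPM in ethanol libraries and 26.1 to 1377 CPM in controls. Of these 10 genes, 4 to 7 were at 0 in an ethanol library and 0 to 4 in a control. Summed sperm markers were 217 to 298 CPM in ethanol libraries and 172 to 942 CPM in controls. The part of either marker set was not tested.

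The direction for the 3 glycine names in Nrf2-/- sperm depended on scaling: with library size set to the sum of every class, log2 differences of tRNA-Gly-GGY, tRNA-Gly-GGA and tRNA-Gly-GGG were -0.11, -0.13 and -0.05, where the median of all features was -0.53. Responses to alcohol in tRNA-Gly and tRNA-Glu shares were also compared between Nrf2-/- and WT sperm. A response was flagged only if every library of one genotype moved one way and every library of the other the opposite way. Of 10 responses, 0 were flagged. Nrf2-/- ethanol and control libraries overlapped for all tested names on both scales, so this rule could hardly be met. It therefore does not show whether the response depends on Nrf2.

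The liver KO comparison asks whether loss of Nrf2 in the liver goes with a shift of these reads in sperm. tRNA-Glu-GAG_ had the greatest difference of the 5 tested names, at 9.71% ± 1.77 of all counts in liver KO libraries and 6.48% ± 1.65 in flox libraries (SD, n = 4 each) and at 25.5% ± 3.13 of tRNA counts in liver KO libraries against 20.5% ± 2.54 in flox libraries. In edgeR its log2 difference was 0.88 (SE 0.24, adjusted p = 0.145), which did not pass the threshold. DESeq2 gave a log2 change of 0.89 with an adjusted p of 0.0452, so DESeq2 called this name and edgeR did not. Without liver KO library 3 it passed in edgeR too, at 0.98 with an adjusted p of 0.0313, when 209 features were called in place of 5. The exact two-sided permutation test of its share gave p = 0.0571 on both scales, with an adjusted p of 0.377 over 33 tRNA names.

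tRNA-Gly-GGY averaged 14.9% ± 2.47 of all counts in liver KO libraries and 12.6% ± 3.73 in flox libraries (SD, n = 4 each). Its edgeR log2 difference was 0.57 (SE 0.25, adjusted p = 0.351), tRNA-Gly-GGG stood at 0.60 (SE 0.26, adjusted p = 0.349), tRNA-Glu-GAA at 0.43 and tRNA-Gly-GGA at 0.22. In plain shares of all counts tRNA-Gly-GGA had the lower mean in liver KO libraries, at 0.300% against 0.322% in flox libraries. In shares of tRNA counts it was also lower on average and overlapped, at 0.792% (0.657% to 0.960%) in liver KO libraries and 1.06% (0.666% to 1.20%) in flox libraries. edgeR called 5 of 9836 features (0.0508%), of which 1 was higher and 4 lower in liver KO sperm, and DESeq2 called 8 higher and 31 lower. Of the 5 names, 3 had an unadjusted p under 0.05 in edgeR, against 12.4% of features. With library size set to the sum of every class, which moved the median of all features to -0.28, tRNA-Gly-GGA turned to -0.10 and edgeR called 13 features, all lower. No share of the 5 tested names was free of overlap between the groups, against 3.03% of the 33 more abundant tRNA names on the scale of all counts and 9.09% on the scale of tRNA counts. Those 33 names include only 4 of the 5 members.

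Summed markers of other cell types differed between liver KO and flox libraries. Summed epididymis markers were 141 to 459 CPM in liver KO libraries and 565 to 686 CPM in flox libraries, and leukocyte markers 29.1 to 86.1 CPM in liver KO libraries and 116 to 142 CPM in flox libraries. Of the 10 epididymis genes, 4 to 6 were at 0 or not listed in a liver KO library and 3 to 6 in a flox library. Defb20 was not listed for these libraries. Crisp1 averaged 218 CPM in liver KO libraries and 469 CPM in flox libraries. Smooth muscle and fibroblast markers were 103 to 172 CPM in liver KO libraries and 162 to 353 CPM in flox libraries. Of the 6 leukocyte genes, 1 to 2 were at 0 in a liver KO library and 0 to 1 in a flox library, and Cd52 carried most of their sum. It averaged 32.5 CPM in liver KO libraries and 113 CPM in flox libraries, while Cd74 averaged 10.9 CPM in liver KO and 11.3 CPM in flox libraries and Lyz2 3.42 and 5.25 CPM. Cd52 is also known as a product of the epididymis. Of the 7 smooth muscle and fibroblast genes none was at 0 in any of these libraries. The part of these cells in the higher tRNA-Glu-GAG_ level was not tested. tRNAs as a class took 31.3% to 43.3% of all counts in liver KO libraries and 28.1% to 37.8% in flox libraries, and the tRNA names other than Gly and Glu took 10.9% to 15.7% in liver KO libraries and 10.0% to 13.02% in flox libraries.

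**Figure D5:**
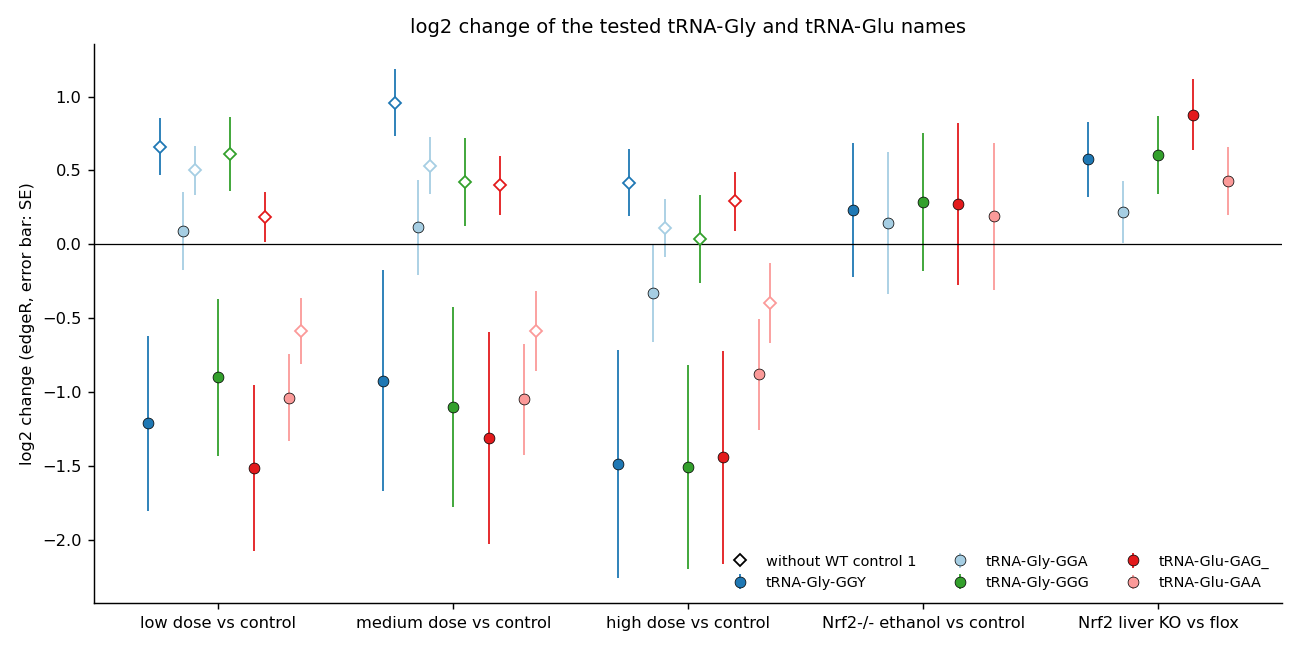
Log2 change in edgeR (y axis, error bars: SE) of the 5 tested names in the 5 comparisons, with all libraries (filled circles) and without WT control 1 (open diamonds, WT comparisons only). tRNA-Gly-GGY, tRNA-Gly-GGG and tRNA-Glu-GAG_ change sign in the 3 WT comparisons when WT control 1 is left out, as does tRNA-Gly-GGA at the high dose, and all 5 names are above 0 in liver KO over flox, although tRNA-Gly-GGA is at -0.10 with total library size.

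Over the 5 tested names, the median edgeR log2 change was -1.04 at the low dose, -1.05 at the medium dose, -1.44 at the high dose, 0.23 for ethanol in Nrf2-/- sperm and 0.57 for the liver KO. WT control 1 decided the sign of the first 3, which without it were 0.50, 0.42 and 0.11, where the other tRNA names had medians of 0.0015, 0.35 and 0.072 and all features 0.011, 0.0094 and 0.10. With all libraries, the 52 other tRNA names tested had medians of -0.40, -0.03, -0.33, -0.12 and 0.36 in the same order, and 0 of them was called in any comparison by edgeR. Medians of all tested features were 0.0046, 0.0042, 0.049, -0.27 and 0.0085. Between 8 and 13 of 30 gene symbols listed for tRNA fragments, modification or charging were tested as exon counts, and edgeR called 0 of them in each comparison. Eprs, which charges tRNA-Glu and tRNA-Pro, averaged 4.42 CPM at the low dose and 3.41 CPM in controls (log2 difference 0.27, edgeR adjusted p = 0.962), and 7.79 CPM in liver KO and 10.5 CPM in flox libraries (-0.18, edgeR adjusted p = 0.858). Dicer1, the RNase that cuts miRNA precursors, averaged 6.12 CPM in liver KO and 9.20 CPM in flox libraries (-0.33, edgeR adjusted p = 0.776). Ssb, which binds new tRNA transcripts, averaged 2.96 CPM in liver KO and 4.55 CPM in flox libraries (-0.33, edgeR adjusted p = 0.813). Ythdf2, a reader of methylated RNA, averaged 2.19 CPM at the low dose and 2.35 CPM in controls (-0.27, edgeR adjusted p = 0.955).

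Across the 12 WT libraries, the feature whose variation was most like that of tRNA-Gly-GGY was tRNA-Glu-GAG_, and the reverse held too. Likeness was the mean absolute difference of log2 CPM after centring each group, over 2037 features with at least 10 CPM. It was 0.19 for this pair, against a median of 0.58 over all features for tRNA-Gly-GGY and 0.56 for tRNA-Glu-GAG_. The next most like features were intronic reads of Pcsk5 (0.20) and the initiator methionine tRNA (0.21) for tRNA-Gly-GGY, and intronic reads of St6galnac5 (0.23) and the initiator methionine tRNA (0.24) for tRNA-Glu-GAG_. These values are descriptive, and the 12 libraries include WT control 1, in which both names were at their highest.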

How the data were processed

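The authors deposited 3 tables of raw read counts per feature, for 12 WT, 8 Nrf2-/- and 8 flox or liver KO libraries, and these deposited counts were used unchanged, with 0 columns left unused. Per the labels' protocols, RNA was extracted with Trizol and libraries were made with a Qiaseq small RNA kit. The sources used here state no aligner or build, nor how reads that match more than 1 position were counted. Groups follow the labels. The column name of WT medium dose 1 has the letter used for high doses, and its label was followed.

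Counts were summed over the copies of each name. Mature miRNAs were left out of the tests but kept in totals. edgeR 4.0.16 in R 4.3.3 (filterByExpr, TMM scaling, quasi-likelihood F test, two-sided, Benjamini-Hochberg adjustment, threshold 0.05) was fitted to all features, separately for each table, with all 12 WT libraries in 1 fit. DESeq2 1.42.0 was an alternative. Shares of single tRNA names were compared by two-sided exact permutation tests (scipy 1.17.1), adjusted over the tRNA names with a mean of at least 0.1% of tRNA counts (38, 34 and 33 names in the WT, Nrf2-/- and liver KO tables). Shares have 95% Wilson intervals of at most 0.132 percentage points to either side, with each count taken as a separate read. The edgeR step was tested on simulated counts with 200 changed features. It recovered 70% of 4-fold changes for the low dose (17937 features), 44% for the medium dose (17937 features), 72% for liver KO (9836 features) and 0% for Nrf2-/- ethanol (9658 features). Of 2-fold changes it recovered 15% for the low dose, 4% for the medium dose, 18% for liver KO and 0% for Nrf2-/- ethanol.

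All 6 names are described. From the other tRNA names the 3 most abundant per table are named, and as most alike the 3 features nearest to each major name. From 30 gene symbols listed for tRNA fragments, modification or charging, up to 3 with the highest mean CPM are named. The members and lists were chosen with earlier results of these data known.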

Additional observations from a re-analysis of the deposited data

Results flagged for a closer look

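A library was set apart where its gap to the nearest library of its group was large for the range of the group by Dixon's test. This held for 15 of 96 groups of values, where chance gives about 1 in 20, and several of these values overlap because they share counts.

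WT control 1 had 27.3% of all counts on tRNA-Gly-GGY, against 4.32% to 6.54% in the other 3 WT controls, and 20.3% on tRNA-Glu-GAG_, against 3.82% to 6.10%. Its tRNA-Gly-GGG share of all counts was 0.0806%, against 0.0212% to 0.0240%. All tRNA-Gly names together had 27.6% there, against 4.55% to 6.81%, all tRNA-Glu names 20.4%, against 3.83% to 6.12%, and both 47.9%, against 9.01% to 12.9%. The same library had the lowest tRNA-Gly-GGA share of tRNA counts, at 0.292%, against 0.877% to 0.986%.

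Nrf2-/- ethanol 4 had 36.2% of tRNA counts on tRNA-Glu-GAG_, against 16.8% to 18.2% in the other ethanol libraries, and the same rounded share of 36.2% for all tRNA-Glu names, against 16.8% to 18.3%. Its tRNA-Glu-GAA share of tRNA counts was 0.0371%, against 0.0176% to 0.0207%, and its tRNA-Gly and tRNA-Glu names together had 42.7%, against 29.6% to 30.9%.

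Single values stood apart in 3 further libraries. Nrf2-/- control 3 had 0.491% of all counts on tRNA-Gly-GGA, against 0.295% to 0.314% in the other controls. Flox library 3 had 0.666% of tRNA counts on tRNA-Gly-GGA, against 1.17% to 1.203%. WT low-dose library 1 had 0.0483% of all counts and 0.178% of tRNA counts on tRNA-Gly-GGG, against 0.0241% to 0.0274% and 0.0804% to 0.0941% in the other low-dose libraries.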

How the results depend on the processing

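No tRNA-Gly or tRNA-Glu name passed the edgeR threshold in any comparison, and this held under TMM or total library size, the replicate block and the largest copy in place of the sum, a choice made after seeing the data. Without the filter on low counts, edgeR called 155 of 45379 features (0.342%) at the low dose and 27 of 45379 (0.0595%) at the high dose. At the low dose 2 names passed (tRNA-Glu-GAA at -1.03, adjusted p = 0.0170, and tRNA-Glu-GAG_ at -1.50, adjusted p = 0.00199) and 1 at the high dose (tRNA-Gly-GGG at -1.42, adjusted p = 0.0297). These fits include WT control 1. With the filter and without that library, tRNA-Glu-GAG_ was at 0.19 at the low dose and tRNA-Gly-GGG at 0.035 at the high dose. DESeq2 called 1 name, tRNA-Glu-GAG_, for liver KO, where it called 39 of 9836 features (0.397%). The cause of these changes was not tested.

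Features called at the low dose numbered 11, against 21 with DESeq2, 0 with total library size, 155 without the filter, 42 with the replicate block, 7 with the largest copy and 30 with only both groups fitted. Without the filter, 54 were called at the medium dose, 27 at the high dose and 1 for Nrf2-/- ethanol, where DESeq2 called 3. For liver KO the 5 calls became 39 with DESeq2, 13 with total library size, 75 without the filter and 25 with the replicate block. With Nrf2-/- controls 1 and 2 left out together, a choice made after seeing the data, 2413 features were called for ethanol.

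Signs turned in 9 further results. tRNA-Gly-GGA was at -0.031 at the medium dose with the replicate block, and with total library size at 0.10 at the high dose and -0.10 for liver KO. For Nrf2-/- ethanol, total library size gave -0.13 for tRNA-Gly-GGA, -0.053 for tRNA-Gly-GGG and -0.11 for tRNA-Gly-GGY. Leaving out both Nrf2-/- controls gave -0.13 for tRNA-Glu-GAA, -0.14 for tRNA-Glu-GAG_ and -0.19 for tRNA-Gly-GGA. Total library size moved the median of all features to 0.18 at the low dose, 0.40 at the high dose, -0.53 for Nrf2-/- ethanol and -0.28 for liver KO.

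Leaving out 1 library at a time gave 0 to 33 features called at the low dose, 0 to 2 at the medium dose, 0 to 1 at the high dose, 0 to 0 for Nrf2-/- ethanol and 0 to 209 for liver KO. The low-dose count was 0 without control 1, control 2, or low-dose library 1, 2 or 4. The liver KO count was 0 without flox 3, flox 4, liver KO 1 or liver KO 2, 1 without flox 2 and 209 without liver KO 3, where 1 name passed (0 to 1 over all libraries left out). The difference in the summed share of all counts ranged from -10.3 to 2.66 percentage points at the low dose, -8.93 to 4.04 at the medium dose, -10.3 to 2.72 at the high dose, -1.49 to 1.82 for Nrf2-/- ethanol and 4.09 to 7.84 for liver KO. For the share of tRNA counts the ranges were -4.84 to 3.27, -4.07 to 4.18, -5.12 to 2.98, 1.32 to 5.68 and 1.28 to 6.60.

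Log2 changes at the low dose ranged from -1.85 to 0.19 for tRNA-Glu-GAG_, -0.055 to 0.50 for tRNA-Gly-GGA, -1.27 to 0.61 for tRNA-Gly-GGG and -1.57 to 0.66 for tRNA-Gly-GGY. At the medium dose they ranged from -1.64 to 0.40, -0.032 to 0.53, -1.40 to 0.42 and -1.28 to 0.96, and at the high dose from -1.80 to 0.29, -0.68 to 0.11, -1.84 to 0.035 and -2.04 to 0.42, in the same order of names. For Nrf2-/- ethanol they ranged from -0.12 to 0.54 for tRNA-Glu-GAA, -0.086 to 0.66 for tRNA-Glu-GAG_ and -0.066 to 0.42 for tRNA-Gly-GGA. Replicate numbers were not taken as pairs, since libraries of the same number did not deviate together in every case (correlations from -0.48 to 0.41). Where leaving a library out left 1 in a group, no exact test of shares was made.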
